A study of Mus musculus with 13 samples.

Results

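BMP receptors, the SMAD proteins that carry their signal, and the ID genes that are among their best known transcriptional targets were followed as a set of 10 genes. They were chosen by name from the table of 13222 genes, with earlier results of these data known. The set holds 3 receptor genes (*Bmpr1a*, *Bmpr2* and *Acvr2b*), 3 SMAD genes (*Smad1*, *Smad5* and *Smad4*), the ubiquitin ligase gene *Smurf2*, and the 3 ID genes *Id1*, *Id2* and *Id3*. All 10 were listed, and all 10 passed the filter on low reads that left 12319 genes for testing. Bone morphogenetic proteins (BMPs) bind complexes of type I and type II receptors, in which the type II receptor phosphorylates the type I receptor and the type I receptor phosphorylates SMAD1 and SMAD5. These join SMAD4 and enter the nucleus, where the ID genes are among the first to respond. ID proteins have a helix-loop-helix domain but no DNA-binding region, so they hold E proteins and related factors away from DNA, and in epithelial tumor cells they are known for opposing differentiation.

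RNA came from 4T1-Thy1.1 cells, a line of the murine mammary carcinoma 4T1 that expresses a Thy1.1 transgene, kept in DMEM/F12 with FBS per the labels, where the study's methods name RPMI with FBS for 4T1 cells. All 4 groups were this 1 line, treated in culture for 48 hours. The control group received neither agent (n = 3, replicates 1, 3 and 5). The DOX group received 200 ng/mL doxorubicin, an anthracycline that damages DNA (n = 4, replicates 1 to 4). The DOX+IL-17A group received 200 ng/mL doxorubicin with 25 ng/mL recombinant mouse IL-17A, a cytokine of T cells (n = 3, replicates 2, 3 and 5), and the IL-17A group received 25 ng/mL IL-17A alone (n = 3, replicates 2, 3 and 5). The 3' ends of mRNA were sequenced, which gives about 1 read per transcript whatever its length, and a value is a gene's reads as CPM after TMM scaling, the trimmed mean scaling of edgeR (normalized value). Nothing in the labels says whether replicates were separate cultures. The study's methods state, for its data in general, that there were 3 or more biological replicates. What a replicate was for these libraries is not given, so the p-values measure the spread between these libraries, which may be technical.

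Reads on listed genes ranged from 4445592 to 16930600 per library, so that 3 reads, taken as the smallest detectable level, correspond to normalized values of 0.1827 to 0.6135. Reads carried no molecular identifiers, so this floor covers counting error only. The 6 epithelial markers were all listed, with summed normalized values of 1961 to 2254 in control, 1010 to 1082 with DOX, 861 to 1130 with DOX+IL-17A and 1727 to 2077 with IL-17A. Of 4 leukocyte markers 2 were listed (*Cd3e* was not), with sums of 0.4262 to 1.861 in control, 1.398 to 2.847 with DOX, 3.183 to 3.873 with DOX+IL-17A and 0.3144 to 1.126 with IL-17A. Of 3 fibroblast markers 2 were listed (*Lum* was not), with sums of 15.56 to 30.29 in control, 9.926 to 16.58 with DOX, 8.242 to 17.17 with DOX+IL-17A and 17.46 to 24.84 with IL-17A. None of the 3 endothelial markers was listed. The 5 skeletal muscle markers reached a sum of 125.4 in DOX replicate 1, against 23.68 or less in every other library, and the 3 listed red blood cell markers reached 66.48 there. The part of these markers in the results was not tested. Control replicate 1 stood apart from the other libraries on the second principal component (72.5, against 23.7 or less), and values without it are given beside calls that changed without it. In bulk RNA, fewer cells with a transcript and less of it per cell cannot be told apart.

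Upstream sequences are shown because the receptors are read below as a group and because E proteins, the partners of ID proteins, recognize the E box. RefSeq windows (GRCm38.p6, the build called mm10) were found for 8 of the 10 genes, with *Id1* and *Smad4* the others. The 250 bases before each start were searched on both strands for GGCGCC, the GC-rich core found in BMP-responsive elements, and for the E box CANNTG. Both motifs read the same on either strand, and no matches overlapped in the stretches printed. Printed are the bases outside every GENCODE vM21 exon for those receptor and ID genes whose window has any, 5′ to 3′ in the direction of the gene, with motif matches in capitals. They cover chr9:119401928-119402117 on the plus strand for *Acvr2b*, chr14:34502688-34502796 on the minus strand for *Bmpr1a* and chr12:25096254-25096342 on the minus strand for *Id2*. Each lies before a RefSeq start, but only that of *Acvr2b* lies outside its gene as GENCODE bounds it. The stretches of *Bmpr1a* and *Id2* lie inside theirs (chr14:34410734-34503341 and chr12:25093799-25097140), between the GENCODE start and the RefSeq start.
Acvr2b: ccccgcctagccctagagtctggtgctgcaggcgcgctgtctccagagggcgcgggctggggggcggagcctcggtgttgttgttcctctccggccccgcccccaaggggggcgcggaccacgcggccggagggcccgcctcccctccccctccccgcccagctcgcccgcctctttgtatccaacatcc
Bmpr1a: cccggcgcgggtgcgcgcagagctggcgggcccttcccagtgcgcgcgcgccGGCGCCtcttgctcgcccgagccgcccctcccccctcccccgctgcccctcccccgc
Id2: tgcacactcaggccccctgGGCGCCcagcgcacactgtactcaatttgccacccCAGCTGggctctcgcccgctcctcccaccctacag
GGCGCC occurred in 9.6% of all 32851 windows of this length, and among the 8 genes it lay in the windows of *Bmpr1a*, *Bmpr2*, *Id2* and *Smurf2* and in 1 of 3 windows of *Smad5*. CANNTG occurred in 66.2% of all windows, and among the 8 genes only in that of *Id2* and in 2 of the 3 of *Smad5*. A match describes these letters and is no evidence of a bound site.

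**Figure D1:**
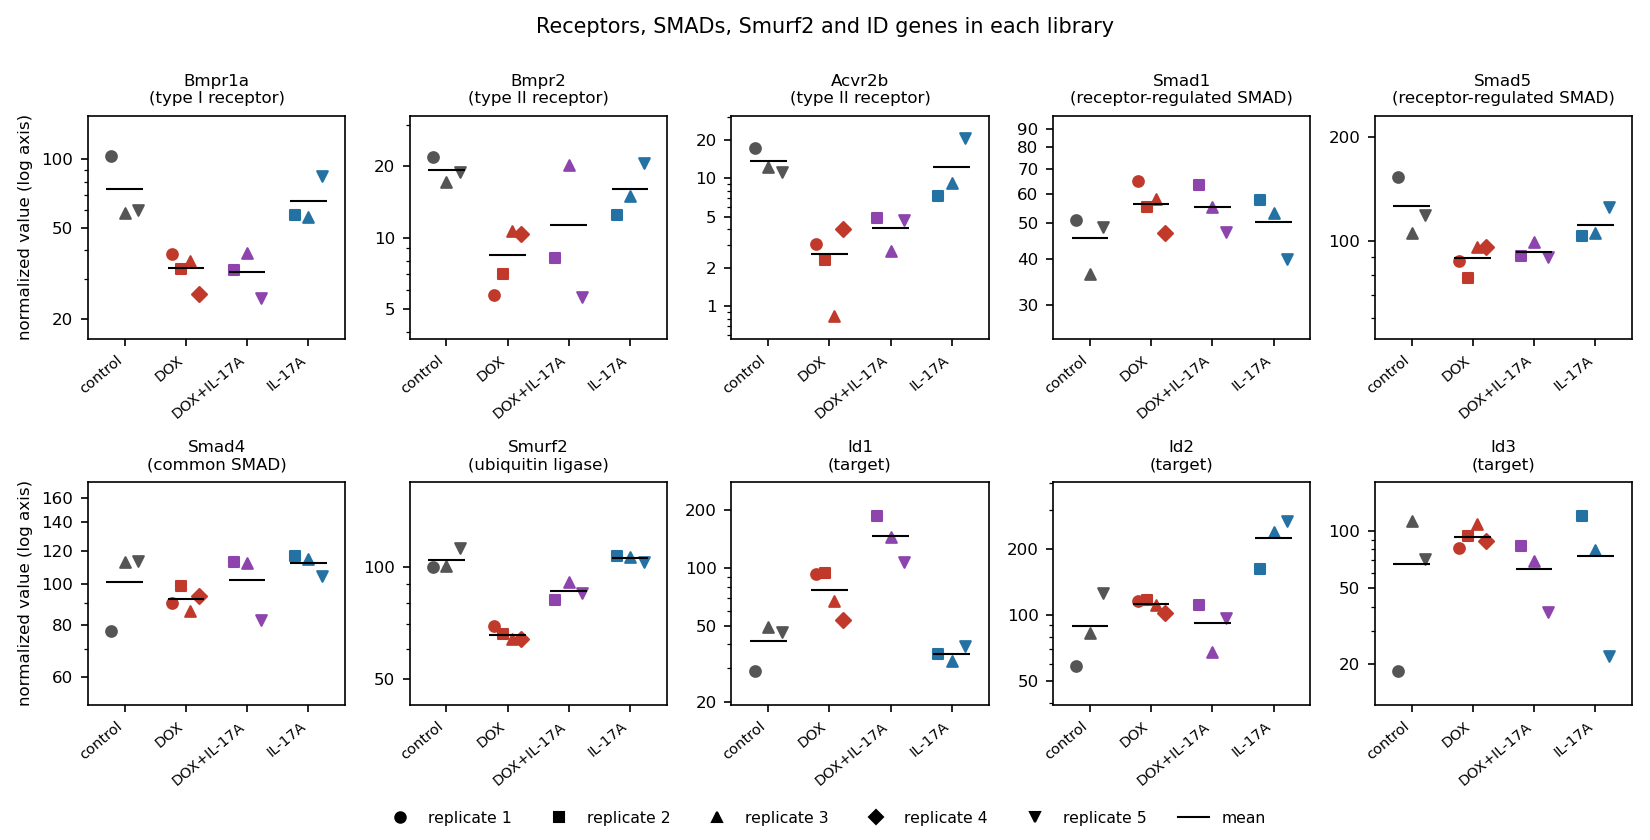
Normalized values (CPM after TMM scaling, log axis) of the 10 genes in each of the 13 libraries, with a marker for each replicate number and a line at the group mean. All DOX values of *Bmpr1a*, *Bmpr2* and *Acvr2b* lie below all control values, *Id1* is highest with DOX+IL-17A (106.9 to 187.7), and *Id2* is highest with IL-17A alone (162.8 to 269.1).

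The first question was how the pathway genes differed between DOX and control. With DOX, 3 of the 10 genes fell and 0 rose, and the 3 were the receptors of the set. Of 4 other tested receptors of the superfamily, described below, 0 was called. The set was chosen with earlier results of these data known, so its counts beside those of all genes describe it and test nothing. To be called, a gene needed an adjusted p (limma) under 0.05 together with more than a 2-fold difference, a rule that 15.3% of all tested genes met, 6.18% by falling and 9.15% by rising. At the adjusted p alone, 5 of the 10 genes passed, against 22.1% of all tested genes. The median log2 fold change was -0.29 over the 10 genes and 0.09 over all genes tested. In 6 of the 10 genes the DOX and control values did not overlap, which held for 33.7% of tested genes.

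*Acvr2b*, on chr9:119402118-119434995 (plus strand), encodes a type II receptor that binds activins and several BMPs, and it had the largest fold change of the 10 genes with DOX. Its normalized value was 17.26, 12.30 and 11.20 in control replicates 1, 3 and 5, and 3.058, 2.299, 0.8389 and 4.024 in DOX replicates 1 to 4. Every DOX library was below every control library, and the lowest rested on 6 reads. The log2 fold change was -2.11 (SE 0.41 and limma adjusted p = 0.0025). The call held in all 13 fits that left out 1 library each, with log2 fold changes from -2.30 to -1.82.

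*Bmpr1a*, on chr14:34410734-34503341 (minus strand), encodes the type I receptor BMPR1A, also called ALK3, and was the most abundant of the 3 receptors. Its normalized value was 103.5, 58.39 and 59.76 in the control libraries and 38.47, 33.06, 35.93 and 25.84 in the DOX libraries. The groups did not overlap, and control replicate 1 was far above the other control libraries. The log2 fold change was -1.09 (SE 0.26 and limma adjusted p = 0.0084). Without control replicate 1 it was -0.82 (adjusted p = 0.027), and without DOX replicate 4 it was -0.98 (adjusted p = 0.030), so that the fold threshold was missed in both fits while the adjusted p was still met.

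*Bmpr2*, on chr1:59763400-59879014 (plus strand), encodes the type II receptor specific to BMPs. Its normalized value was 21.82, 17.23 and 18.98 in control and 5.714, 7.007, 10.63 and 10.37 with DOX. The control libraries were close together and all above the DOX libraries. The log2 fold change was -1.14 (SE 0.37 and limma adjusted p = 0.039), the weakest of the 3 calls. It remained in 5 of the 13 fits that left out 1 library, and leaving out any single control or DOX library ended it, with adjusted p-values from 0.050 to 0.096, as did leaving out IL-17A replicate 3 (adjusted p = 0.054).

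The calls of *Bmpr1a* and *Bmpr2* also depended on scaling. With libraries scaled by size alone, the median over all genes went from 0.09 to 0.24. The DOX differences on the log2 scale were then -0.91 for *Bmpr1a* and -0.98 for *Bmpr2*, under the fold threshold. The limma adjusted p was still met for *Bmpr1a* (0.019) but not for *Bmpr2* (0.077). *Acvr2b* was at -1.97 and still called. That scaling gave 1516 genes that rose and 488 that fell with DOX, against 1127 and 761 under TMM.

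Among the SMAD genes 0 of the 3 was called by limma with DOX against control, with 1 of the 3 at an unadjusted p under 0.05. *Smad5*, which encodes a SMAD phosphorylated by BMP receptors, had normalized values of 153.9, 105.7 and 119.1 in control and 87.65, 78.50, 96.33 and 96.57 with DOX. These groups did not overlap, and the log2 fold change was -0.47 (95% confidence interval -0.86 to -0.09, adjusted p = 0.073, limma). Over all alternatives the adjusted p ranged from 0.031 (DESeq2, at -0.53 and under the fold threshold) to 0.28. *Smad1*, its close relative with the same role, went the other way by value, from 36.41 to 50.92 in control and from 46.86 to 65.03 with DOX. Its groups overlapped, and its log2 fold change was 0.31 (95% confidence interval -0.14 to 0.76, adjusted p = 0.31, limma).

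The ratio of *Smad5* to *Smad1*, in which library scaling cancels, was 3.02, 2.90 and 2.44 in control and 1.35, 1.43, 1.66 and 2.06 with DOX. It was 1.43, 1.81 and 1.91 with DOX+IL-17A and 1.80, 2.0 and 3.16 with IL-17A. The control ratios were thus above all ratios with DOX or DOX+IL-17A, while the IL-17A ratios overlapped both; the ratio was chosen after the values were seen and was not tested. *Smad4*, the partner shared with the TGF-β arm, was at 77.31 to 113.3 in control and 86.12 to 98.76 with DOX. Its log2 fold change was -0.11 (95% confidence interval -0.52 to 0.29) and turned to 0.06 with scaling by library size.

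*Smurf2*, on chr11:106820066-106920715 (minus strand), encodes a ubiquitin ligase that marks SMADs and receptors for degradation. Its normalized value was 99.98, 100.2 and 112.6 in control and 69.14, 66.13, 63.89 and 63.85 with DOX. Both groups were tight and clearly apart. The log2 fold change was -0.66 (SE 0.16 and limma adjusted p = 0.0092), past the adjusted p but under the fold threshold.

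The ID genes did not follow the receptors downward with DOX, and by value all 3 were higher on average. For *Id2* and *Id3* this depended on control replicate 1, without which their log2 fold changes were 0.13 and 0.05. *Id1*, on chr2:152736251-152737410 (plus strand), had normalized values of 28.93, 49.08 and 46.44 in control and 92.64, 94.38, 67.67 and 53.65 with DOX. The lowest DOX library thus exceeded the highest control library. The log2 fold change was 0.88 (SE 0.26 and limma adjusted p = 0.026), under the fold threshold. It was 1.05 (adjusted p = 0.013) with scaling by library size, which made it a call. Leaving out control replicate 3 (1.01) or DOX replicate 4 (1.04) did so too. It was 0.64 (adjusted p = 0.082) without control replicate 1 and 0.78 (adjusted p = 0.072) without DOX replicate 1. Over all alternatives the lowest value was 0.54 and the highest adjusted p was 0.18.

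*Id2*, on chr12:25093799-25097140 (minus strand), was at 58.70, 82.87 and 126.6 in control and at 116.4, 117.5, 111.4 and 102.7 with DOX. The DOX libraries were close together within the upper range of the control libraries. Its log2 fold change was 0.39 (95% confidence interval -0.16 to 0.94, adjusted p = 0.29, limma), and 0.13 (adjusted p = 0.75) without control replicate 1. *Id3*, on chr4:136143497-136145755 (plus strand), was at 18.44, 112.3 and 70.96 in control and at 81.61 to 108.2 with DOX, and its wide control range gave an interval of -0.37 to 1.95 around a log2 fold change of 0.79 (adjusted p = 0.31). Without control replicate 1 that fold change was 0.05.

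**Figure D2:**
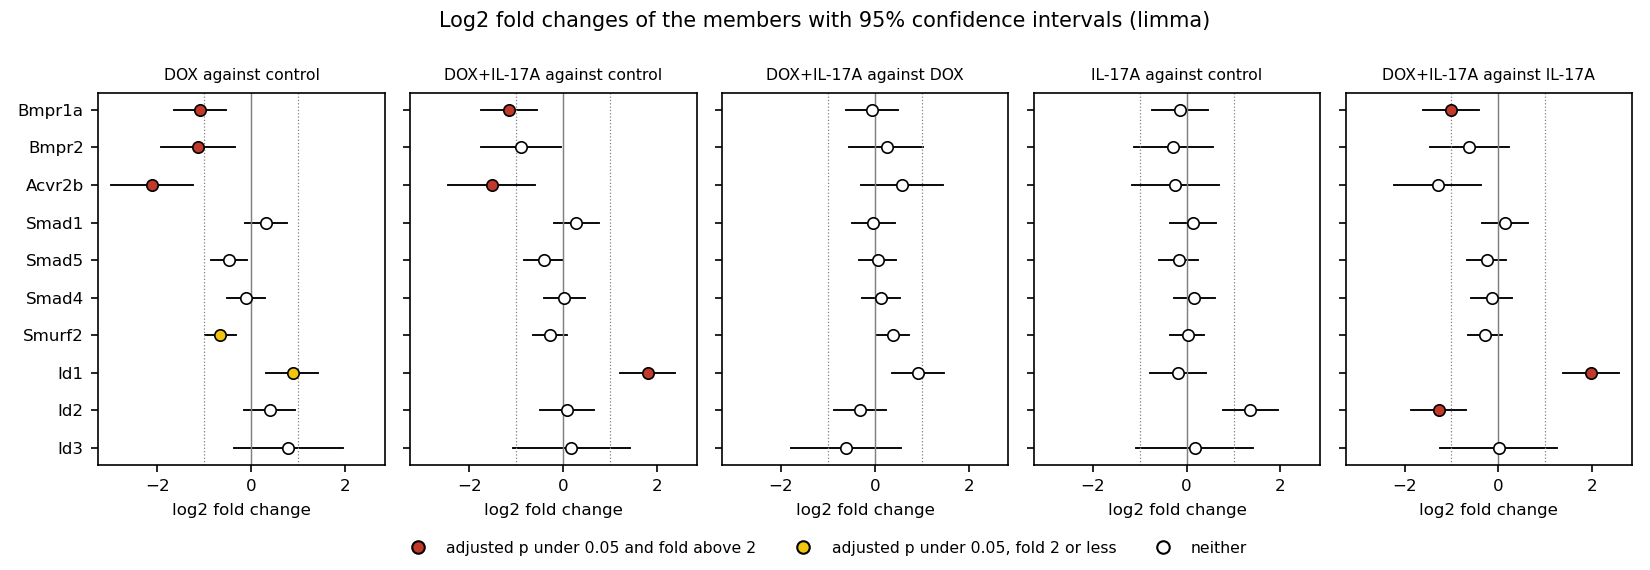
Log2 fold changes of the 10 genes in 5 comparisons (x axis), as points with 95% confidence intervals from limma, with dotted lines at a fold of 2. Red marks called genes, yellow an adjusted p under 0.05 without the fold, and white neither. The 3 receptors are left of 0 in the first 2 comparisons, those of DOX and DOX+IL-17A against control, *Id1* is furthest right with DOX+IL-17A, and *Id2* is right of 0 with IL-17A alone.

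The comparison of DOX+IL-17A with control asked the same of the combined treatment. It used the same control libraries, so its values are given beside those of DOX alone and not as a second test of them. With DOX+IL-17A, *Id1* rose and *Bmpr1a* and *Acvr2b* fell, which made 3 calls among the 10 genes. Of all tested genes 12.9% were called, 6.95% as rising and 5.95% as falling. The values of the groups did not overlap in 5 of the 10 genes, against 30.1% of tested genes, and the median log2 fold change was -0.13 over the 10 genes and 0.04 over all.

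*Id1* reached 187.7, 146.0 and 106.9 in DOX+IL-17A replicates 2, 3 and 5. The lowest of these was more than the highest of any other group (94.38, in DOX). Against control the log2 fold change was 1.80 (SE 0.28 and limma adjusted p = 0.00075). It stayed between 1.56 and 2.01 when any library was left out, and was called in all 13 of those fits.

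Among the receptors, *Bmpr1a* was at 32.72, 39.03 and 24.66 with DOX+IL-17A, below all control libraries, with a log2 fold change of -1.15 (SE 0.28 and limma adjusted p = 0.011). *Acvr2b* was at 4.908, 2.681 and 4.744, with a log2 fold change of -1.52 (SE 0.44 and adjusted p = 0.026). *Bmpr2* was at 8.180, 20.26 and 5.618. Replicate 3 thus lay inside the control range for *Bmpr2*, and the log2 fold change was -0.90 (adjusted p = 0.13), or -1.38 (adjusted p = 0.028) without that library.

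Both receptor calls of this comparison depended on single libraries. Without control replicate 1, the log2 fold change was -0.88 (adjusted p = 0.026) for *Bmpr1a* and -1.35 (adjusted p = 0.056) for *Acvr2b*. The call of *Bmpr1a* was also lost without DOX+IL-17A replicate 5, at -0.98 (adjusted p = 0.044), and with scaling by library size, at -0.97. That scaling gave 1227 genes that rose and 517 that fell, against 856 and 733 under TMM. That of *Acvr2b* was also lost without control replicate 5 or DOX+IL-17A replicates 2 or 3, with adjusted p-values of 0.053, 0.050 and 0.10. Of the other genes, *Id2* (67.82 to 110.8), *Id3* (37.39 to 83.23), *Smad1* (47.19 to 63.39) and *Smad4* (81.83 to 112.7) overlapped control. *Smad5* (90.14 to 99.70) and *Smurf2* (81.39 to 91.06) were below it by value, with log2 fold changes of -0.41 (adjusted p = 0.15) and -0.28 (adjusted p = 0.28).

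DOX+IL-17A was then compared with DOX, which asks what IL-17A adds. None of the 10 genes was called by limma, and 0.438% of all tested genes were. At an unadjusted p under 0.05 there were 2 of the 10, *Id1* and *Smurf2*, and voom with limma, edgeR and DESeq2 on recovered reads each called 0. These were also the 2 genes whose groups did not overlap, against 10.3% of tested genes. *Id1* differed by 0.92 on the log2 scale (95% confidence interval 0.37 to 1.48, unadjusted p = 0.0029, adjusted p = 0.25), and its adjusted p ranged from 0.068 to 0.69 over the alternatives. *Smurf2* differed by 0.38 (95% confidence interval 0.04 to 0.72, adjusted p = 0.68), with every DOX+IL-17A library (81.39 or more) between the DOX libraries (69.14 or less) and the control libraries (99.98 or more). For the receptors the intervals of the difference were -0.61 to 0.49 for *Bmpr1a*, -0.54 to 1.03 for *Bmpr2* and -0.29 to 1.45 for *Acvr2b*.

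With IL-17A alone against control, again 0 of the 10 genes was called by limma, and only 0.00812% of tested genes (1 gene) were. *Id2* was the 1 member at an unadjusted p under 0.05. It was also the 1 member whose groups did not overlap, against 6.04% of tested genes. Its normalized value was 162.8, 239.9 and 269.1 in IL-17A replicates 2, 3 and 5, each above the highest value of any other group (126.6, in control). The log2 fold change was 1.35 (95% confidence interval 0.77 to 1.94, unadjusted p = 0.00016, adjusted p = 0.25, limma). DESeq2 on recovered reads called it, at 1.3 (adjusted p = 0.018), while voom with limma and edgeR did not, and the adjusted p reached 1 in the least favorable alternative.

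No other member reached an unadjusted p under 0.05 (limma) with IL-17A alone. Several of their intervals were wide, so this does not show that they were unchanged. *Id1* was at 35.37, 32.70 and 39.05, inside the control range, with a log2 fold change of -0.18 (95% confidence interval -0.77 to 0.42). *Id3* was at 120.0, 79.39 and 22.15, spread as widely as in control, with a 95% confidence interval of -1.08 to 1.41. The receptor intervals were -0.73 to 0.45 for *Bmpr1a*, -1.12 to 0.56 for *Bmpr2* and -1.17 to 0.69 for *Acvr2b*. IL-17A replicate 5 had the highest value of its group for each receptor (84.42, 20.59 and 20.51) and the lowest for *Id3*, as control replicate 1 had in its group, and the part of this in the results was not tested.

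DOX+IL-17A against IL-17A asks for the effect of DOX in cells that also received the cytokine, with no control library in the contrast. *Id1* rose, and *Bmpr1a* and *Id2* fell, so that 3 of the 10 genes were called. Of all tested genes 9.84% were called, 4.92% as rising and 4.92% as falling. The groups did not overlap in 6 of the 10 genes, against 32% of tested genes, and the median log2 fold change was -0.27 over the 10 genes and 0.02 over all.

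*Id1* showed the largest of these differences, with a log2 fold change of 1.98 (SE 0.28 and limma adjusted p = 0.00071). *Id2* had a log2 fold change of -1.27 (SE 0.28 and adjusted p = 0.0083), as all DOX+IL-17A libraries (110.8 or less) were below all IL-17A libraries (162.8 or more). Both were called in all 13 fits that left out a library. *Bmpr1a*, at 57.22, 55.81 and 84.42 with IL-17A, had a log2 fold change of -1.01 (SE 0.28 and adjusted p = 0.026), and this call was lost without DOX+IL-17A replicates 2 or 5 or IL-17A replicates 3 or 5 (adjusted p from 0.055 to 0.11) and with scaling by library size (-0.79). Under that scaling 1017 genes rose and 381 fell, against 606 and 606 under TMM. *Acvr2b*, at 7.322, 9.117 and 20.51 with IL-17A, had a log2 fold change of -1.29 (adjusted p = 0.064) and was called by DESeq2 and, in limma, without control replicate 1 (adjusted p = 0.041).

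*Id1* and *Id2* thus differed in order across the groups. For *Id1* the group means were 35.71 ± 3.190 with IL-17A (SD, n = 3), 41.48 ± 10.95 in control (n = 3), 77.08 ± 19.82 with DOX (n = 4) and 146.9 ± 40.44 with DOX+IL-17A (n = 3). The first pair of neighbors overlapped, and the later ones did not. For *Id2* the means were 89.39 ± 34.41 in control, 91.93 ± 21.97 with DOX+IL-17A, 112.0 ± 6.754 with DOX and 223.9 ± 54.93 with IL-17A, and only the last step was free of overlap.

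Whether the effect of IL-17A differed with and without DOX was tested as an interaction. At an adjusted p under 0.05 limma called 0 of the 10 genes and 0% of all tested genes. *Id1* and *Id2* had unadjusted p-values under 0.05, and voom with limma, edgeR and DESeq2 called 0 members. For *Id2* the IL-17A effect was lower with DOX by -1.66 on the log2 scale (95% confidence interval -2.46 to -0.86, unadjusted p = 0.00046, adjusted p = 0.31). For *Id1* it was higher by 1.1 (95% confidence interval 0.29 to 1.91, unadjusted p = 0.011, adjusted p = 0.90). These differences were therefore not established across all genes.

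**Figure D3:**
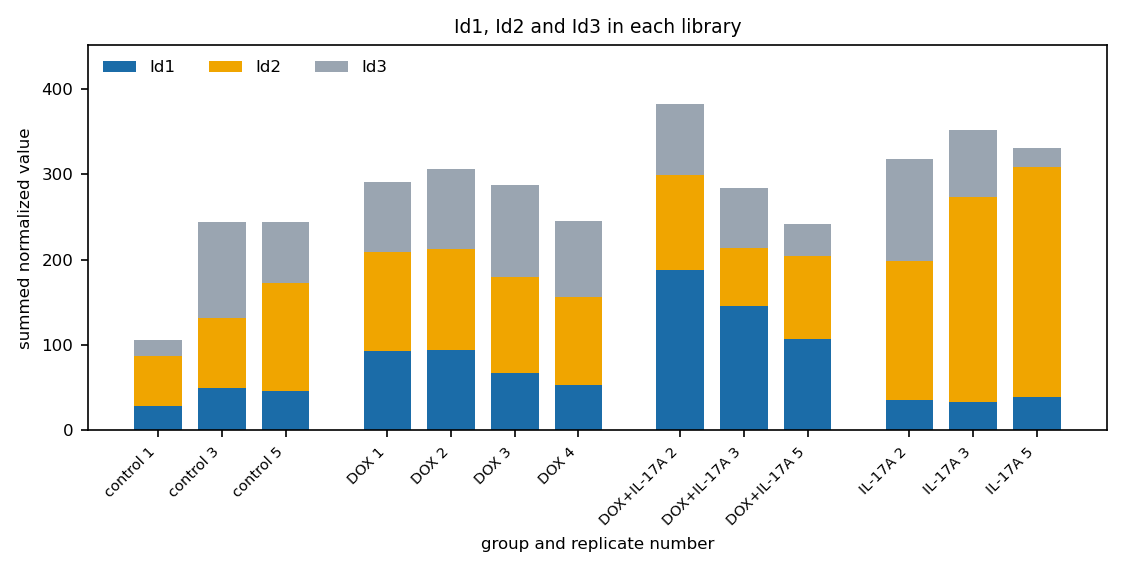
Normalized values of *Id1*, *Id2* and *Id3* stacked for each of the 13 libraries (y axis, summed normalized value; x axis, group and replicate number). *Id1* makes up 44.3% to 51.5% of the sum with DOX+IL-17A and 9.3% to 11.8% with IL-17A alone.

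The makeup of the ID transcripts was compared as shares of their sum, in which the scaling of a library cancels. These shares are described without a test. *Id1* made up 27.3%, 20.1% and 19.0% of the sum in control and 31.9%, 30.8%, 23.6% and 21.9% with DOX. It made up 49.2%, 51.5% and 44.3% with DOX+IL-17A and 11.1%, 9.3% and 11.8% with IL-17A. The libraries with DOX+IL-17A and those with IL-17A alone thus lay at opposite ends, apart from all others.

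*Id2* made up 51.2%, 68.2% and 81.5% with IL-17A and 23.9% to 40.2% with DOX+IL-17A. With DOX its share was 38.4% to 42.0%, and in control 33.9% to 55.3%. The summed value of the 3 genes was 318.1 to 352.0 with IL-17A, 241.4 to 381.8 with DOX+IL-17A, 244.7 to 306.1 with DOX, and 106.1, 244.3 and 244.0 in control. Except for control replicate 1, the sums were therefore closer to each other than the shares were.

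Receptors and ID genes were set against each other in each library as the difference of their mean log2(value + 1). This difference is a description, since the genes were chosen with earlier results known. It was -0.11, 1.68 and 1.63 in control replicates 1, 3 and 5, and 3.24, 3.41, 3.35 and 2.79 in the DOX libraries. It was 3.31, 2.61 and 2.90 with DOX+IL-17A and 2.26, 2.05 and 0.89 with IL-17A. All libraries that received DOX were thus above all that did not.

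The group means of this difference were 1.07 ± 1.02 (SD, n = 3) in control, 3.20 ± 0.28 (n = 4) with DOX, 2.94 ± 0.35 (n = 3) with DOX+IL-17A and 1.73 ± 0.74 (n = 3) with IL-17A. DOX was 2.13 above control, and 1.54 above it without control replicate 1. Most of this came from the receptors, whose mean log2 level was 4.79 in control and 3.34 with DOX, against 5.85 and 6.54 for the ID genes. The ID part depended largely on control replicate 1, with an ID mean of 5.03, against 6.29 and 6.24 in control replicates 3 and 5. The receptor means of these libraries were 5.14, 4.60 and 4.62. DOX+IL-17A was 1.87 above control (1.29 without control replicate 1). IL-17A was 0.67 above control, or 0.08 without control replicate 1.

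**Figure D4:**
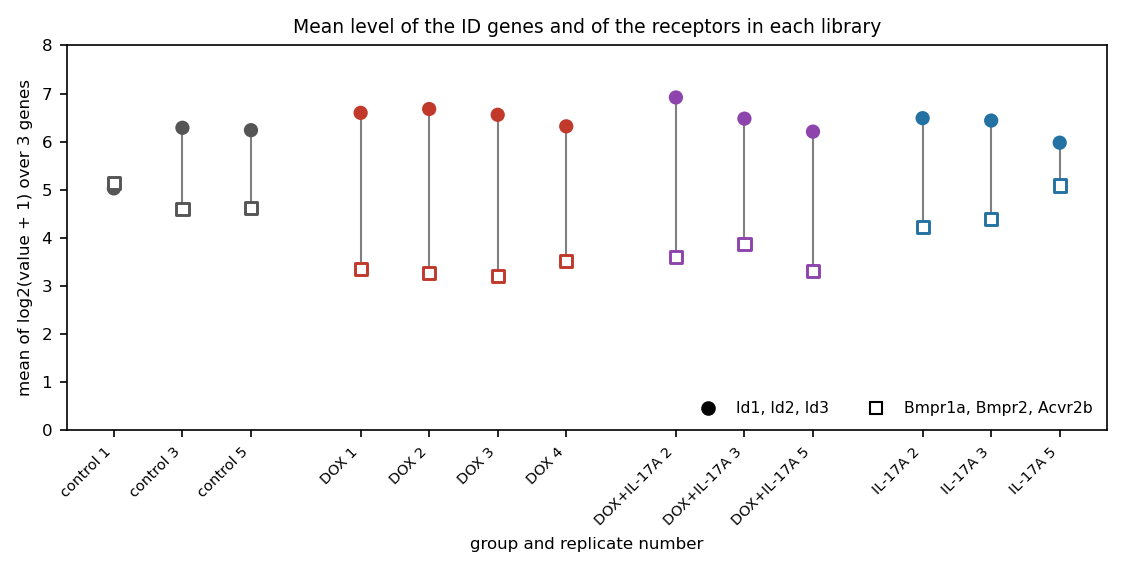
Mean of log2(value + 1) over the 3 ID genes (filled circles) and over the 3 receptors (open squares) in each of the 13 libraries, joined by a line. The receptor means lie between 3.21 and 3.87 in libraries with DOX and between 4.23 and 5.14 in those without, while the ID means lie between 5.03 and 6.92 throughout.

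Of 88 other genes of the pathway 58 were listed and 53 tested. With DOX 5 rose and 5 fell, which made 10 calls of 53, where 15.3% of all tested genes were called. Without control replicate 1 there were 7, with *Tgfb3* gained (-1.12, adjusted p = 0.008, limma), and fewer of all tested genes were called too. The median log2 fold change over the 53 was -0.18. With DOX+IL-17A against control 3 rose and 4 fell, against 12.9% called of all tested genes, and without control replicate 1 the 7 calls became 9. Calls among all tested genes also became more numerous without that library. Against IL-17A 4 rose and 3 fell, against 9.84% of all tested genes, and these 7 became 10. Against DOX, and with IL-17A alone, limma called 0 of the 53, as did voom, edgeR and DESeq2, and at an unadjusted p under 0.05 there were 0 and 1 (*Tgfb2*).

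Among ligands only *Bmp7* was tested, and it fell with DOX from a mean normalized value of 5.220 in control to 1.028, a log2 fold change of -1.52 (adjusted p = 0.012, limma) that was lost without control replicate 5 (adjusted p = 0.068). The other receptors of the superfamily gave 0 calls of 4 by limma, voom, edgeR and DESeq2, and 0 at an unadjusted p under 0.05 with DOX. Their log2 fold changes with DOX were 1.03 for *Acvr1*, -0.01 for *Acvr2a*, -0.42 for *Tgfbr1* and -0.01 for *Tgfbr2*. *Acvr2a*, the closest relative of *Acvr2b*, had normalized values of 4.398 to 7.550 in control and 3.076 to 9.926 with DOX, which overlap.

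The other SMAD genes, *Smad2*, *Smad3*, *Smad6* and *Smad7*, gave 0 calls of 4 in every comparison by limma, voom, edgeR and DESeq2, and 0 at an unadjusted p under 0.05. *Smad7*, an inhibitory SMAD that TGF-β and BMP signals induce, was at 32.14 to 36.90 in control and 29.51 to 48.23 with DOX. *Smurf1*, the relative of *Smurf2*, was at 52.10 to 71.18 in control and 78.99 to 88.44 with DOX, with a log2 fold change of 0.39 (95% confidence interval -0.05 to 0.83, adjusted p = 0.19), opposite in sign to *Smurf2*. *Id4*, the fourth ID gene, was listed at 0 to 3.613 and left out by the filter on low reads.

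Secreted antagonists gave 3 calls of 7 with DOX, all upward, where 9.15% of all tested genes rose. *Fst*, which encodes the activin and BMP antagonist follistatin, had values of 0 to 0.8524 in control and 3.702 to 19.93 with DOX, a log2 fold change of 2.62 (adjusted p = 0.0053, limma). *Nbl1*, which encodes the BMP antagonist NBL1, also called DAN, went from 1.297 to 2.557 in control to between 5.365 and 10.38 with DOX, with 1.41 (adjusted p = 0.0082). Both were called in all 13 fits that left out a library, although *Fst* was not called by voom. *Fstl1*, a follistatin-like gene (1.25, adjusted p = 0.043) was called in 4 of those 13, and lost without control replicates 3 or 5, any DOX library, DOX+IL-17A replicates 3 or 5, or IL-17A replicate 3 (adjusted p up to 0.18). Neither edgeR nor DESeq2 called *Fstl1* with DOX, and its DOX and control values overlapped. *Nbl1* rose with DOX+IL-17A as well, against control (1.69, adjusted p = 0.0054) and against IL-17A (1.51, adjusted p = 0.013, though 0.072 without IL-17A replicate 3).

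The E protein genes, whose products ID proteins bind, fell in 2 of 3 with DOX, where 6.18% of all tested genes fell. *Tcf4* went from 414.0 to 474.0 in control to between 164.8 and 251.8, a log2 fold change of -1.02 (adjusted p = 0.0013, limma), which was -0.96 without control replicate 1 and -0.89 without DOX replicate 3, and not called with scaling by library size. *Tcf12* went from 75.96 to 138.7 to between 35.37 and 53.03, with -1.23 (adjusted p = 0.0020), and was called in all 13 fits. *Tcf3* was at -0.70 (adjusted p = 0.052). *Tcf4* fell with DOX+IL-17A as well, with -1.15 against control (adjusted p = 0.0012) and -1.03 against IL-17A (adjusted p = 0.0034), both not called with scaling by library size, and the latter not without DOX+IL-17A replicate 2 or IL-17A replicate 5.

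Of the 21 intracellular regulators 2 fell with DOX, a share near the 6.18% of all tested genes that fell. *Usp9x*, which encodes a deubiquitinase that acts on SMAD4, had a log2 fold change of -1.14 (adjusted p = 0.00086, limma), called in all 13 fits but not with scaling by library size. *Tab1*, which encodes a partner of the kinase TAK1, had -1.22 (adjusted p = 0.041) and was called in 5 of 13, with -0.84 (adjusted p = 0.15) without control replicate 1, and also lost without control replicate 5, DOX replicates 1, 3 or 4, DOX+IL-17A replicate 3, or IL-17A replicates 2 or 3. Nor was *Tab1* called by voom or with scaling by library size. Of the 4 co-receptor genes *Rgmb* alone was called with DOX, upward (1.63, adjusted p = 0.049), where 9.15% of all tested genes rose. It was called in 4 of 13 fits and not by voom, edgeR or DESeq2, and it was at 1.20 (adjusted p = 0.16) without control replicate 1.

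With DOX+IL-17A against control further calls were *Bmp7* (-1.25, adjusted p = 0.048, kept in 1 of 13 fits), *Fst* (2.13, adjusted p = 0.027, kept in 9), *Usp9x* (-1.02, adjusted p = 0.0035, kept in 11) and *Zfyve16* (-1.11, adjusted p = 0.026, kept in 9), all by limma. Without control replicate 1 the values were -1.70 for *Bmp7*, still called, and 1.91, -0.90 and -0.99 for the others, which were not. Calls gained without it were *Rgma* (-1.47), *Fstl1* (1.74), *Ctdsp2* (-1.07), *Tcf12* (-1.20) and *Tgfb3* (-1.71). The call of *Bmp7* was lost without any library but that one. That of *Fst* was also lost without control replicate 5 or DOX+IL-17A replicates 2 or 3, that of *Zfyve16* without control replicate 5 or DOX+IL-17A replicates 3 or 5, and that of *Usp9x* without DOX+IL-17A replicate 2. *Bmp7*, *Usp9x* and *Zfyve16* were not called with scaling by library size, nor *Bmp7* by edgeR or *Fst* by voom. Against IL-17A, where control libraries do not enter the contrast, further calls were *Tgfb2* (1.53, adjusted p = 0.0029, kept in all 13), *Tcf12* (-1.02, kept in 11), *Bmp7* (-1.45, kept in 7) and *Fstl1* (1.51, kept in 6). Without control replicate 1, which enters this contrast through the shared spread alone, *Fst* (1.82, adjusted p = 0.038), *Hey1* (1.21, adjusted p = 0.049) and *Tgfb3* (-1.14, adjusted p = 0.0053) were gained. *Bmp7* and *Fstl1* were lost without any of the 6 libraries compared (*Fstl1* also without DOX replicate 4), and *Tcf12* without DOX+IL-17A replicate 2 or IL-17A replicate 3. In this comparison edgeR called neither *Bmp7* nor *Fstl1*, voom did not call *Fstl1*, and *Bmp7* and *Tcf12* were lost with scaling by library size.

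**Figure D5:**
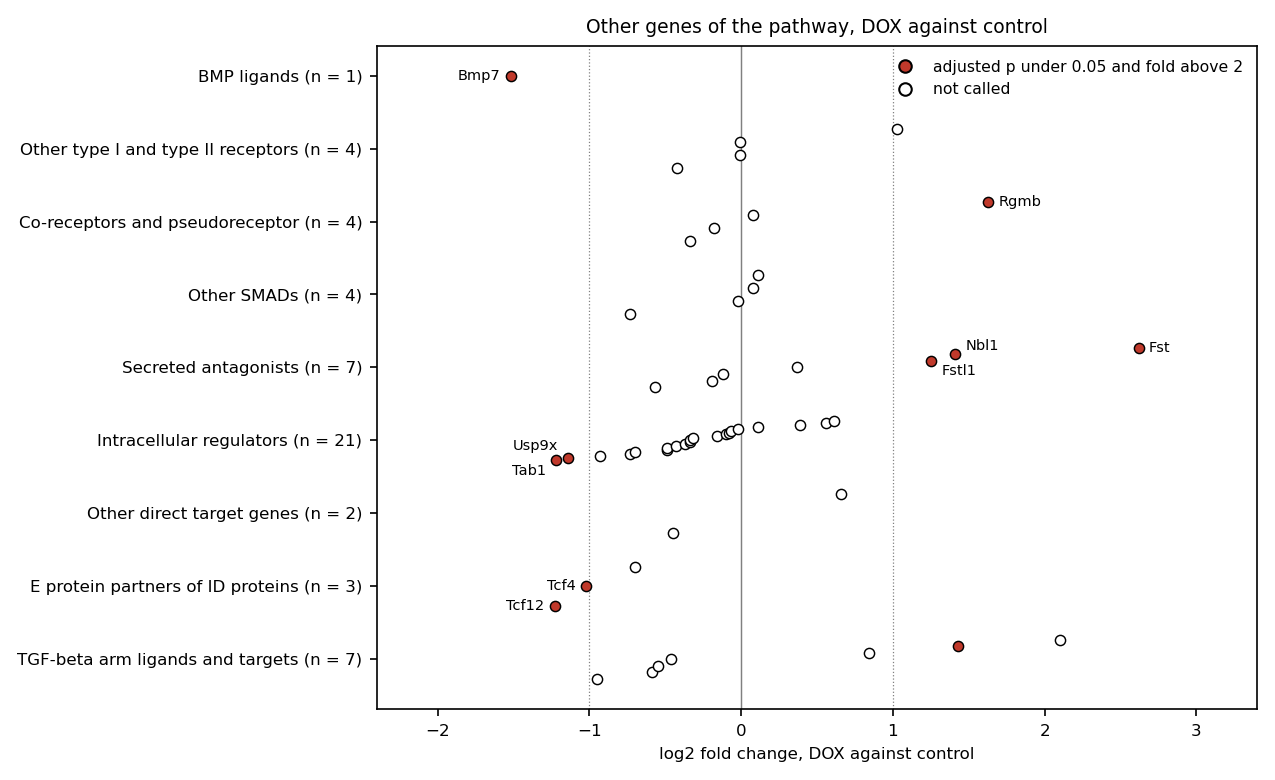
Log2 fold changes of the 53 other tested pathway genes with DOX against control (x axis), by role (y axis, with the number tested), filled where the limma call was met, with dotted lines at a fold of 2. The genes labelled on the right are *Fst*, *Rgmb*, *Nbl1* and *Fstl1*, and the 5 called downward are *Bmp7*, *Tcf12*, *Tab1*, *Usp9x* and *Tcf4*.

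Likeness of profile was measured as the mean absolute difference of log2 values over the 13 libraries, each gene centered on its own mean, among 6159 genes in the upper part by level. The nearest genes have the smallest of these differences by choice, so the medians give a scale only. Nearest to *Id1* were *Tfrc* (0.27) and *Slc29a1* (0.28), against a median of 0.75 over all candidates. Nearest to *Id2* were *Frk* (0.27), *Tmem176b* (0.27) and *Tmem106b* (0.28), against a median of 0.56. Nearest to *Id3* were *Unc119b* (0.21), *Vta1* (0.21) and *Rsrp1* (0.22), against 0.72, and among the 3 nearest to *Smurf2* were *Map4k4* (0.10) and *Itgb1* (0.10), against 0.41.

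Exact permutation tests of single members between groups cannot go below 2-sided p-values of 0.0571 for 4 against 3 libraries and 0.1 for 3 against 3, and the calls above therefore rest on the fit across all genes. The ratios, shares, sums, differences of ID genes and receptors, overlaps of groups and likeness of profiles are descriptions without a test.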

How the data were processed

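The authors prepared QuantSeq 3' libraries, sequenced single reads of 75 bases, mapped them to mm10 with STAR and counted them per gene with featureCounts, after FastQC and Trimmomatic per the submitters' processing notes. They scaled the counts by TMM. The deposited table holds this normalized signal, not counts, for 13223 entries, of which 1 identical second entry was dropped, leaving 13222 genes (17 with names turned into dates). In every library 100% of values were whole multiples (within 0.01) of the value of 1 read, so reads were recovered. TMM factors recomputed from them matched those implied by the table within 1.44e-07%.

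Members and gene lists were chosen with earlier results of these data known. Libraries were assigned to groups by their labels. Values as log2(value + 1) were fitted by limma (trend) over all 13 libraries at once (9 residual degrees of freedom), on the 12319 genes kept by edgeR's filterByExpr, with Benjamini-Hochberg adjustment over all of them. Adding 1 understates differences of low genes such as *Acvr2b*. Calls needed an adjusted p under 0.05 and a fold above 2 (the adjusted p alone for the interaction). Replicates differed by more than sampling noise (chi-square per degree of freedom 7.65 to 177). Named were the 10 members, the listed pathway genes that were called or are close relatives of a member, and the 3 nearest profiles of *Id1*, *Id2*, *Id3* and *Smurf2*. Some genes this rule names are not reported here.

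The alternatives tried were 3 other tests on recovered reads (voom with limma, edgeR's quasi-likelihood test, DESeq2), size-only scaling of libraries, omission of the filter or a stricter one (mean 10 reads), 0.1 as the pseudocount, fits restricted to the compared groups, a replicate block, no fold threshold, and omission of each library in turn. Tested on simulated DOX and control counts, in which 200 of 11936 genes differed 4-fold, the limma test found 169 of them (84.5%) and made 8 false calls. DESeq2 made 28 false calls there. The simulation gave every gene the same spread between replicates and held no outlying library. Its rates therefore do not carry over to calls near a fold of 2 in the real libraries. Software was DESeq2 1.42.0, edgeR 4.0.16 and limma 3.58.1 under R 4.3.3, with pandas 2.3.3 and matplotlib 3.10.9 under python 3.11.15. Gene positions are from GENCODE vM21 (GRCm38), and upstream windows from RefSeq.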

Additional observations from a re-analysis of the deposited data

How the results depend on the processing

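Of the 10 genes, 3 were called with DOX against control. This count was 1 with the replicate block, 5 with the adjusted p alone, 1 with neither control replicate 1 nor DOX replicate 1 in the fit (an alternative chosen after seeing the data), and between 1 and 3 when single libraries were left out, the lowest without control replicate 1. Calls among all tested genes, 1888 in the main fit, were also fewer with the block, with neither of those libraries and without control replicate 1. With DOX+IL-17A against control 3 were called, which became 1 with the replicate block, 1 when the fit held the compared groups alone, 1 with neither of those libraries, and between 1 and 3 with single libraries left out. Here calls among all tested genes, 1589 in the main fit, were fewer with the block and with the compared groups alone. They were more numerous with neither of those libraries. With IL-17A against control the count of 0 became 1 (*Id2*) with DESeq2. With DOX+IL-17A against IL-17A it was between 2 and 4 with single libraries left out.

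Over all members, comparisons and alternatives, the direction and side of the threshold were kept in 1304 of 1420 values. A call was lost in 34 and gained in 11, the sign changed without a call in 71, and no called value changed sign. The count of kept values overstates stability, since most belong to comparisons in which the gene was not called to begin with. Omitting a library outside a contrast also leaves the fold change as it was, and the adjusted p alone reuses the main fit. All 34 lost calls come from the few member values called in the main fit. *Acvr2b* with DOX and *Id1* with DOX+IL-17A were called under every alternative. With the replicate block, the log2 fold change with DOX was -0.97 for *Bmpr1a* (adjusted p = 0.038) and -1.21 for *Bmpr2* (adjusted p = 0.073). With DOX+IL-17A against control it was -0.98 for *Bmpr1a* (adjusted p = 0.044) and -1.34 for *Acvr2b* (adjusted p = 0.060), and against IL-17A *Acvr2b* gained a call (-1.29, adjusted p = 0.045), as it did with neither of those libraries (adjusted p = 0.049). The block gave 8, 5 and 8 calls among the 53 other pathway genes, against 10, 7 and 7, in these 3 comparisons. In both comparisons with control, the block also gave fewer calls among all tested genes. Same-numbered libraries deviated from their group means with correlations of -0.185 to 0.515 (mean 0.159), over 0.1 in 8 of 13 pairs, against a mean of -0.039 and 15 of 50 for different numbers, and 7 of 13 libraries were closest to their own number, a hint of pairing from the data that not every pair shows, and the labels do not say what a number marks, so the fit without the block was used. The cause of these changes was not tested. Depth limits *Acvr2b* most, with 6 reads in its lowest library.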
